A study of Mus musculus with 2 samples.

Results

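MiR-106a-363 and miR-106b-25 are microRNA (miRNA) gene clusters on mouse chromosomes X and 5. Their members were chosen by position, as all miRNA precursors listed on the minus strand of chromosome X from 50094000 to 50096500 or of chromosome 5 from 138606000 to 138607500 (mm9). Of 9 members, 8 were listed, among 620 precursor entries in all. MiR-106a, miR-20b, miR-19b-2, miR-92a-2 and miR-363 were listed on chromosome X, and miR-106b, miR-93 and miR-25 on chromosome 5. MiR-18b of chromosome X was listed in neither table. The tables hold no entry for it, so no level is given.

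The study profiled small RNA of wild type C57BL/6 mouse hearts at embryonic day 9.5, when atria and ventricles become distinct in shape. There were 2 replicates of this 1 group, and no treatment, mutant or other age entered, so no conditions could be compared. Whether the replicates came from separate pools of embryos is not given in the sources used here, nor is the number of hearts in each. Total RNA of whole hearts was sequenced, in which fewer cells of a type and less miRNA per cell cannot be told apart. Mature reads summed to 4942257 in replicate 1 and 4806179 in replicate 2, with reads listed at several entries counted more than once. The 5 heart muscle miRNAs taken as markers made up 22.6% and 23.5% of these, and the neural markers miR-124 and miR-9 0.0193% and 0.0148%. Both sums count a marker at each of its entries, although such entries can hold the same reads. The entries miR-1a-1 and miR-1a-2, for example, each stood at 10.2% as the mean of the replicates.

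Both clusters are relatives of miR-17-92, a cluster on chromosome 14 known for driving cell proliferation and survival. Each is transcribed as 1 long RNA, from which Drosha and DGCR8 cut hairpins and Dicer then cuts short duplexes. Either arm of a hairpin, 5p or 3p, may be loaded into Argonaute, and the less used one is called the star. Nucleotides 2 to 8 of the loaded miRNA, the seed, pair with target mRNAs. MiRNAs with the miR-17 seed repress the cell cycle inhibitor Cdkn1a (p21). Mice without miR-17-92 die around birth with heart and lung defects. Mice lacking only miR-106a-363 or only miR-106b-25 look normal, whereas combined loss of miR-17-92 and miR-106b-25 is lethal in midgestation with defects that include the heart.

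The sequences show which members can be told apart by their reads. They are given 5′ to 3′ from RefSeq (GRCm38.p6), with the seed in capitals. The members with the miR-17 seed come first, with miR-17-5p of chromosome 14 for comparison.
miR-106a-5p: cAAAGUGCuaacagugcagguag
miR-20b-5p: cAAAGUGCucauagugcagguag
miR-93-5p: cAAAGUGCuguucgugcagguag
miR-106b-5p: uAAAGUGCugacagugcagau
miR-17-5p: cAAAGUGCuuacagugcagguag

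MiR-106a-5p differed from miR-17-5p at 1 of 23 positions, A10U, counted from the 5′ end with the base of miR-106a first. MiR-20b-5p differed from miR-17-5p at 2 positions and miR-93-5p at 4, none of them in the seed. A second set shares the miR-25 seed.
miR-92a-3p: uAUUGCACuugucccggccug
miR-25-3p: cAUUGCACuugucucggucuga
miR-363-3p: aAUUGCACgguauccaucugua

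Outside the seed these miRNAs were less alike, for miR-25-3p differed from miR-92a-3p at 3 of 21 positions and miR-363-3p at 11. The remaining miRNAs carry 3 further seeds, of which that of miR-106b-3p was found at no other precursor in the tables.
miR-19b-3p: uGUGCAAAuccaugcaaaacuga
miR-18b-5p: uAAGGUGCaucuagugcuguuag
miR-106b-3p: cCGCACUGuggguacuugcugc

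MiR-92a-3p and miR-19b-3p are each encoded at 2 loci with the same sequence, by miR-92a-2 and miR-19b-2 on chromosome X and by miR-92a-1 and miR-19b-1 in miR-17-92. By this mature sequence alone, a read cannot be assigned to a chromosome. Of the sequences printed here, only those of the opposite arms tell these loci apart.
miR-92a-2-5p (chromosome X): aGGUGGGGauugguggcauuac
miR-92a-1-5p (chromosome 14): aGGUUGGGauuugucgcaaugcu
miR-19b-2-5p (chromosome X): aGUUUUGCagauuugcaguucagc
miR-19b-1-5p (chromosome 14): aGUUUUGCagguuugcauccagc

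Across 22 aligned bases the miR-92a star arms differed at 5 positions, and across 23 those of miR-19b differed at 7. For each of the 8 listed members the mature sequence given in the tables was identical to that of RefSeq in both replicates.

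In the GENCODE vM1 annotation of the same assembly, the hairpin genes of miR-106b-25 span 498 nt. They lie in the intron of Mcm7, a subunit of the replicative DNA helicase, between exons 13 and 14 of the 15 exons of transcript Mcm7-001, on the same strand. The hairpin of miR-106b lay at chr5:138606974-138607035, that of miR-93 at chr5:138606763-138606824 and that of miR-25 at chr5:138606560-138606619. MiR-93 and miR-25 also overlapped an exon of another transcript, Mcm7-010, whereas miR-106b did not. The hairpin genes of miR-106a-363 span 875 nt. The hairpin of miR-106a met an exon of Kis2 only at the hairpin's 5′ end. Kis2 is a long noncoding RNA gene at chrX:50095740-50098137 on the same strand. The other listed hairpins overlapped no gene of that strand that is not a miRNA. From the 5′ end, the order in this cluster was miR-106a at chrX:50095685-50095740 (replicate 1), miR-18b, miR-20b at chrX:50095302-50095358 (replicate 1), miR-19b-2 at chrX:50095168-50095233, miR-92a-2 at chrX:50095031-50095090 and miR-363 at chrX:50094874-50094938.

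Levels are mature reads of a member in percent of the mature reads of all entries in that replicate. They needed little allowance for length, since the mature sequences are 21 to 23 nt long. The yield of different sequences in library preparation was not tested, so ratios between miRNAs or arms are ratios of reads. The 3 members on chromosome 5 were all abundant. MiR-25-3p had 47814 mature reads in replicate 1 and 55096 in replicate 2, or 1.06% ± 0.13 of all mature reads (SD, n = 2), and ranked 22 of the 471 entries listed in both replicates. Ranks are over entries, so a miRNA with repeated entries takes several places. MiR-106b, counted on its 3p arm, had 18085 and 21886 reads (0.411% ± 0.063, rank 44). MiR-93-5p, the only abundant member with the miR-17 seed, had 13995 and 13702 reads (0.284% ± 0.0014, rank 56). Thus miR-25 contributed 60.3% of the mature reads of its cluster, miR-106b 23.4% and miR-93 16.3%.

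On chromosome X, 1 entry held nearly all reads. MiR-92a-2 had 79713 and 90257 mature reads (1.75% ± 0.19, rank 12), which was 94.6% of the reads listed for the cluster, but this sequence is also that of miR-92a-1. Every other listed member of that cluster contributed at most 1.94% as the mean of the replicates.

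MiR-363-3p, the last hairpin of the cluster, had 1791 and 1677 reads (0.0356% ± 0.00095, rank 162). MiR-19b-2 had 1564 and 1335 (0.0297% ± 0.0027, rank 172), again with the sequence of another locus. MiR-20b-5p had 1184 and 1119 (0.0236% ± 0.00048, rank 184). These 3 lay within a narrow range, and below them stood miR-106a-5p, the first hairpin of the cluster, with 506 and 491 reads (0.0102% ± 0.000016, rank 226).

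**Figure D1:**
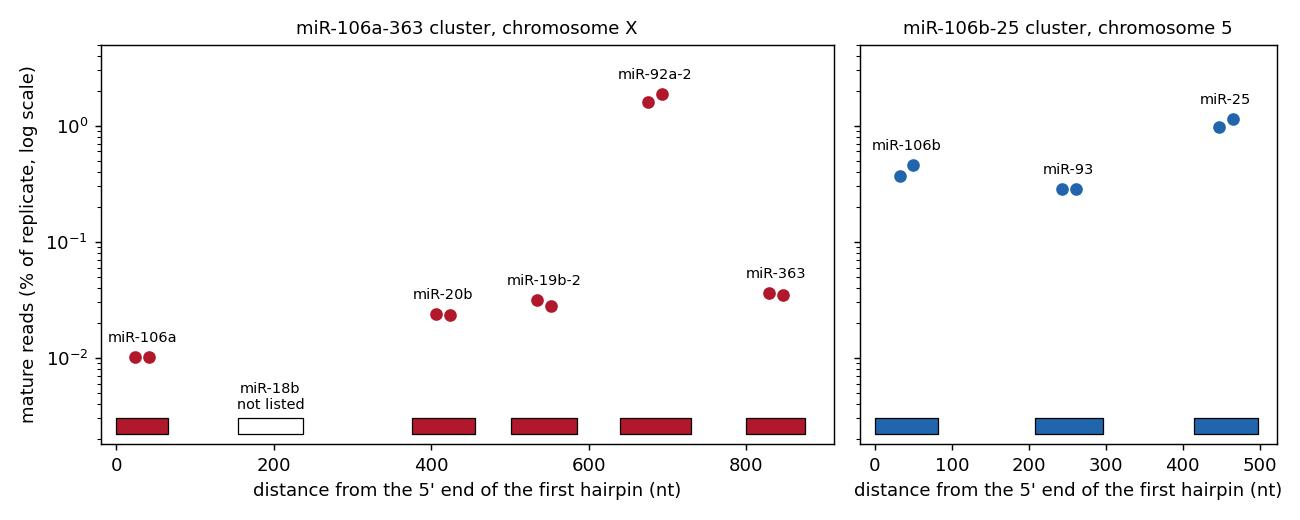
Mature reads of each member as percent of all mature reads of a replicate, on a log scale, at the place of its hairpin in the cluster. Boxes are the annotated hairpins, drawn to scale within each panel, red for chromosome X and blue for chromosome 5, the open box is miR-18b, which was not listed, and of each pair of points the left is replicate 1 and the right replicate 2. MiR-92a-2 stands far above its neighbours, while the 3 members on chromosome 5 all lie above 0.28%.

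In descending order the members were miR-92a-2, miR-25, miR-106b, miR-93, miR-363, miR-19b-2, miR-20b and miR-106a. The values of the replicates did not overlap between any neighbours in that order, and no test over the 2 samples was made. The widest step was from miR-93 to miR-363, a ratio of 7.99 ± 0.25 (SD, n = 2). The narrowest were miR-363 over miR-19b-2 (1.20 ± 0.079) and miR-19b-2 over miR-20b (1.26 ± 0.090). MiR-106b exceeded miR-93 by 1.29 times in replicate 1 and 1.60 times in replicate 2, the least steady of these ratios.

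Both clusters together thus divide by chromosome and by whether the sequence is shared. Summed as listed, miR-106a-363 held 84758 and 94879 mature reads (1.84% ± 0.18) and miR-106b-25 held 79894 and 90684 (1.75% ± 0.19). Their ratio, chromosome 5 over chromosome X, was 0.949 ± 0.0093 (SD, n = 2). Without miR-92a-2 and miR-19b-2, whose reads may come from chromosome 14, miR-106a-363 kept 3481 and 3287 reads (0.0694% ± 0.0014), and miR-106b-25 then exceeded it by 23.0 times in replicate 1 and 27.6 times in replicate 2. In star reads, which tell the miR-92a and miR-19b loci apart, the excess was 13.1 and 11.1 times. This excess depends on arm use, since most star reads of each cluster came from 1 hairpin. On chromosome X miR-363 held 115 of 120 and 130 of 138 star reads. On chromosome 5 miR-106b held 1151 of 1568 and 976 of 1536. The near equality of the clusters as listed therefore rests on the miR-92a-2 entry. MiR-17-92 itself held 149539 and 158499 mature reads (3.16% ± 0.19), of which 0.946% ± 0.016 of all mature reads remained without miR-92a-1 and miR-19b-1.

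The star arm of miR-92a-2 was nearly absent from the reads. It had 1 read in replicate 1 and 2 in replicate 2, whereas the star arm of miR-92a-1 had 268 and 306. Of the star reads of both loci, 0.372% and 0.649% came from chromosome X. Mature reads were 1.26 and 1.24 times as many at miR-92a-1 as at miR-92a-2, a net difference of 20920 and 21959 reads, and how the reads that match both were assigned is not given in the sources used here. MiR-19b followed the same pattern. Its entries had nearly equal mature reads, with 1587 and 1345 at miR-19b-1 against 1564 and 1335 at miR-19b-2, whereas the star arm had 0 and 2 reads on chromosome X against 32 and 37 on chromosome 14.

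Arm use was then compared among the members. Star reads are given as percent of mature plus star reads, and the median was taken over the 305 entries that reached 100 mature reads in each replicate. It was 0.991% in replicate 1 and 0.939% in replicate 2. MiR-363 had the largest star share of the members, with 115 star reads (6.03%, 95% Wilson interval 5.05 to 7.19) and 130 (7.19%, 6.09 to 8.48). MiR-106b followed with 1151 (5.98%, 5.66 to 6.33) and 976 (4.27%, 4.01 to 4.54). These intervals cover counting error only, since the reads carry no molecular identifiers. In replicate 1 the intervals of miR-363 and miR-106b overlapped, and in replicate 2 they did not.

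MiR-93 had 145 and 166 star reads (1.03% and 1.20%), close to the median of all entries, and miR-25 had 272 and 394 (0.566% and 0.710%). MiR-20b had 3 and 4 star reads (0.253% and 0.356%). MiR-106a had 1 star read in replicate 1 and 0 in replicate 2, where its interval reached 0.776%. All members had 0 reads on the loop of the hairpin in both replicates, as did 252 of the 305 entries.

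**Figure D2:**
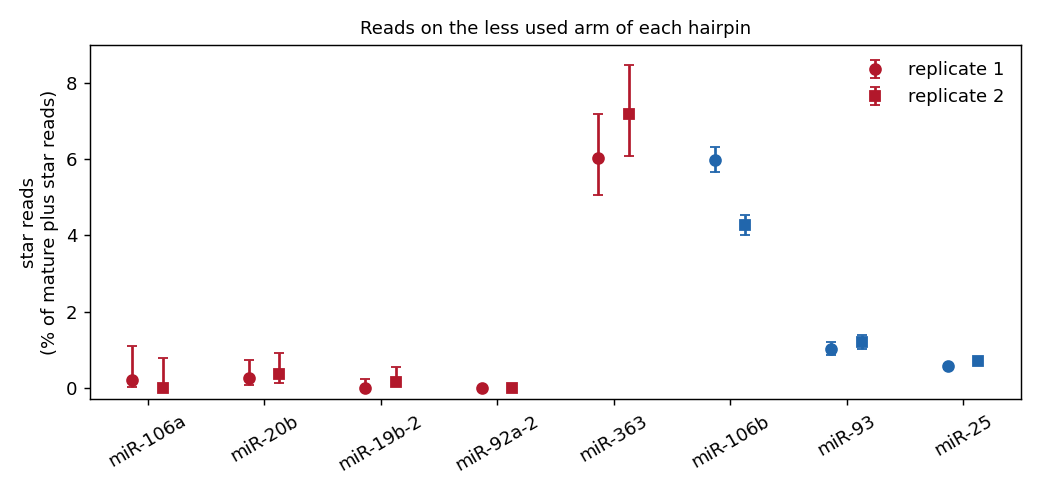
Star reads of each member as percent of its mature plus star reads. Circles are replicate 1 and squares replicate 2, red is chromosome X and blue chromosome 5, and bars are 95% Wilson intervals, which cover counting error only. MiR-363 and miR-106b lie between 4.27% and 7.19%, and the others at or below 1.20%.

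MiR-106b stood apart from its relatives in the arm it used. MiR-106a, miR-20b, miR-93, miR-17 and miR-20a were all counted on the 5p arm with the miR-17 seed, whereas miR-106b was counted mostly on the 3p arm, with the seed CGCACUG. Its hairpin is printed with both arms in capitals, the 5p arm first, as the tables give it (minus strand of chr5:138606974-138607035, mm9).
miR-106b hairpin: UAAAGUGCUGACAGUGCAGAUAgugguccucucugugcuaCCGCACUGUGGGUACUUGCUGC

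The arms are 22 nt each and the loop between them is 18 nt long. There were 15.7 reads of the 3p arm per read of the 5p arm in replicate 1 and 22.4 in replicate 2 (19.1 ± 4.7, SD, n = 2). MiR-106b-5p thus made up 0.0218% ± 0.0021 of mature reads, close to miR-20b-5p and below miR-93-5p, which had 13.1 ± 1.3 reads per read of miR-106b-5p (SD, n = 2). Although they lie in the same intron, miR-93 and miR-106b had very unequal numbers of reads with the miR-17 seed.

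Hairpins were set side by side in pairs taken by name or by place in the clusters. MiR-17 had 16081 and 16157 mature reads, 31.8 and 32.9 times those of miR-106a. In other words, miR-106a reached 3.15% and 3.04% of the miR-17 count with a sequence 1 base away. The number of mismatches allowed in mapping is not given in the sources used here, and the part of misread miR-17 in the miR-106a count was not tested. MiR-20a exceeded miR-20b by 24.4 and 23.9 times. MiR-25 exceeded miR-363, the member of chromosome X with the same seed, by 26.7 and 32.9 times. For miR-20b the size of the gap depended on the relative, since miR-17, which also differs from it at 2 positions, exceeded it by 13.6 and 14.4 times and miR-93 by 11.8 and 12.2 times. MiR-106a lay below miR-106b, counted on the other arm, by 35.7 and 44.6 times.

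**Figure D3:**
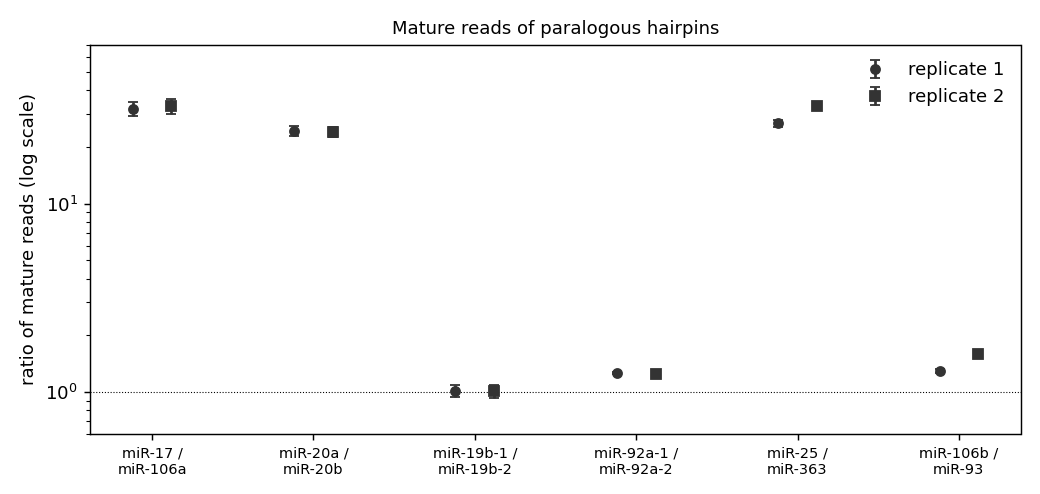
Mature reads of 1 hairpin divided by those of its relative, on a log scale. Circles are replicate 1 and squares replicate 2, bars are 95% exact intervals that cover counting error only, and the dotted line marks equality. The pairs that share a mature sequence, miR-19b and miR-92a, lie near equality, whereas miR-106a, miR-20b and miR-363 fall below the relatives drawn here by 23.9 to 32.9 times.

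Star shares of 7 such pairs were compared by two-sided Fisher's exact test in each replicate, with Benjamini-Hochberg adjustment over the 14 tests. These tests compare reads within a library and not conditions, and their p-values cover counting error only. MiR-93 had a smaller star share than miR-106b (adjusted p = 1.5e-137 in replicate 1 and 1.2e-68 in replicate 2, exact test), and miR-363 a larger one than miR-25 (adjusted p = 2.7e-68 and 5.2e-76, exact test). MiR-106a had a smaller star share than miR-17, whose star reads were 6.66% and 6.87% (adjusted p = 1.2e-13 and 4.1e-15, exact test). MiR-106a also lay below miR-106b (adjusted p = 3.1e-12 and 1.9e-09, exact test). Its star reads were only 1 and 0, and the star window of miR-17 starts 1 nt inside the RefSeq miR-17-3p. The tests of miR-92a and miR-19b rest on mature sequences that both loci share and are not read as arm use. That of miR-20b is void, because the star window of miR-20a in the tables starts 8 nt inside the RefSeq miR-20a-3p and holds 0 reads. MiR-18b could not be compared with miR-18a, which had 1407 and 1286 mature reads.

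Grouped by seed, the members supplied different parts of each family. Mature reads with the miR-17 seed made up 1.22% ± 0.011 of the total, of which miR-17-92 gave 73.9%, miR-93 23.3% and miR-106a with miR-20b 2.77%. This leaves out miR-106b-5p, which has the same seed but is counted as a star arm (0.0218% of mature reads). Mature reads with the miR-25 seed made up 5.06% ± 0.52. Of these, miR-92a-1 gave 43.2%, miR-92a-2 with miR-363 35.2% and miR-25 20.9%, and 0.758% came from miR-32 and miR-92b outside the 3 clusters. Here miR-92a is counted at both loci, and counted once it left miR-25 with 31.8% ± 0.59 of the family. In the miR-19 family 38.8% was listed at miR-19b-2 and the rest at miR-17-92. All shares within the miR-25 and miR-19 families depend on how the shared sequences are counted. Those of the miR-17 family count miR-17 once, leaving out its second entry with the same share (0.331% of mature reads).

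**Figure D4:**
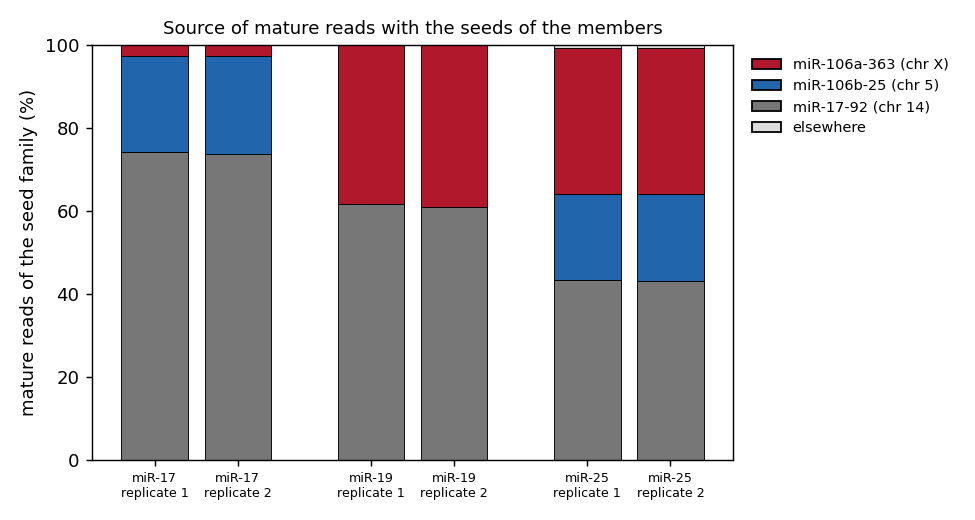
Source of the mature reads with the seeds of the miR-17, miR-19 and miR-25 families, as percent of the family, with 1 bar per replicate. Red is miR-106a-363, blue miR-106b-25, dark grey miR-17-92 and light grey other loci. Chromosome 5 gives 23.3% of the miR-17 family and 20.9% of the miR-25 family, and chromosome X gives 2.77% of the miR-17 family, with miR-92a and miR-19b counted at both loci. Star reads, among them miR-106b-5p, are left out.

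The replicates were compared to see how far the members varied between libraries. Each entry with at least 20 mature reads in sum was tested by the two-sided exact binomial test against the totals of mature reads, with Benjamini-Hochberg adjustment over 431 entries. Because this test covers read-counting error only, 41.1% of all entries passed at 0.05, 27.6% being higher in replicate 2 and 13.5% higher in replicate 1. Of the 8 members 4 passed, 3 of them higher in replicate 2 and 1 higher in replicate 1. All members had more than 100 mature reads in both replicates. With that minimum set for all entries, 57% of 305 entries passed, and the same 4 members.

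MiR-106b was higher in replicate 2 by 0.32 on the log2 scale (adjusted p = 3.5e-104, exact binomial test), miR-25 by 0.24 (adjusted p = 3.2e-161, exact binomial test) and miR-92a-2 by 0.22 (adjusted p = 6.3e-214, exact binomial test). MiR-19b-2 had a log2 difference of -0.19 (adjusted p = 0.0016, exact binomial test). MiR-93 differed by 0.01 and miR-106a by 0.00, with miR-20b at -0.04 and miR-363 at -0.05, none of which passed. Whether the members on chromosome 5 differed from each other in this was not tested. The median absolute difference of the members was 0.12, against 0.19 over all 431 entries and 0.12 over the 187 entries with at least 1000 reads in both replicates. Other scalings moved miR-93 to the other sign. It was at -0.05 with TMM (adjusted p = 0.014, exact binomial test) and at -0.06 with DESeq2 size factors (adjusted p = 0.0024, exact binomial test), with which miR-363 also passed at -0.12 (adjusted p = 0.032, exact binomial test).

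**Figure D5:**
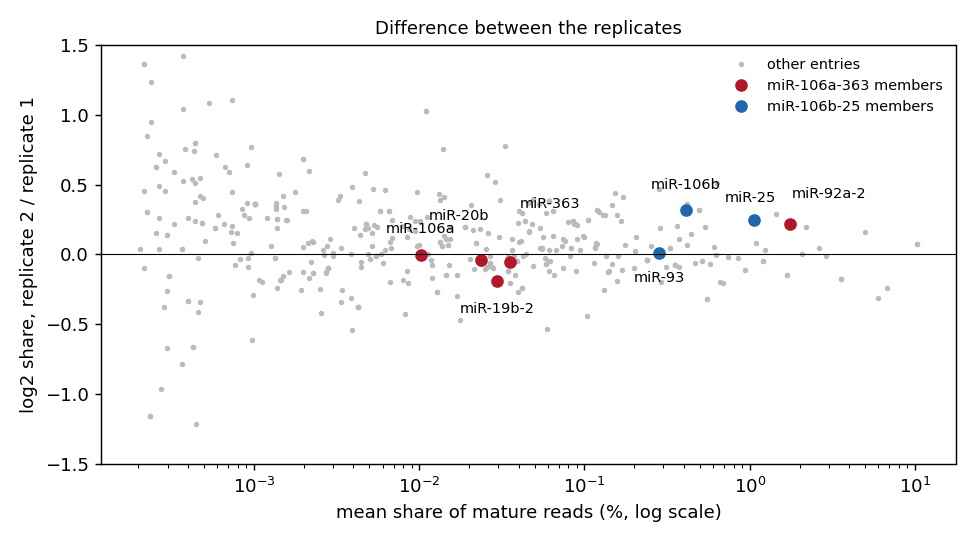
Log2 ratio of the share in replicate 2 over replicate 1 against the mean share, on a log scale, for the 431 entries tested. Grey points are other entries, red and blue points the members on chromosomes X and 5, and 3 entries beyond 1.5 in either direction are not shown. MiR-106b, miR-25 and miR-92a-2 lie above 0, miR-19b-2 below it, and the others near it.

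Arm use was also compared between the replicates by Fisher's exact test over the 302 of these entries with the same mature arm in both and at least 1 star read, a comparison that covers counting error only and was added after the data had been seen. Of these entries 11.9% passed at an adjusted 0.05, and 2 of the 8 members did. The star share of miR-106b was lower in replicate 2, with a difference of -1.71 percentage points (adjusted p = 8.1e-14, exact test). That of miR-25 was higher by 0.144 points (adjusted p = 0.036, exact test). The 3p reads of miR-106b were higher in replicate 2, and its 5p reads were lower, at -0.20 on the log2 scale. The difference of the 5p arm alone was not tested. The median absolute difference over all 431 entries was 0.19.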

How the data were processed

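Small RNA of total RNA from mouse hearts was prepared with the TruSeq Small RNA kit and sequenced on an Illumina HiSeq as single reads of 50 nt. With miRDeep2, the authors placed the clean reads of each replicate on mm9, and they deposited raw read counts of the mature, loop and star parts of each known precursor, without normalization. They also deposited the miRDeep2 score of each precursor, a rounded log-odds value used here only in the closing observations. Versions of miRDeep2 and miRBase, trimming, and the treatment of mismatches and multiple matches are not given in the sources used here.

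Entries of the replicates were paired where they overlapped by at least 50% on the same strand. Shares are percent of all mature reads, as mean ± SD over 2 replicates. Star shares have 95% Wilson intervals, and ratios exact binomial ones. Summed over all entries there were 4942257 and 4806179 mature reads, in which reads listed at several entries count more than once. Counting error is small for abundant members and larger for star arms with few reads. Repeated entries were kept in the totals, and of the 2 entries for miR-17 only that within miR-17-92 was used. Table sequences on the minus strand matched the NCBIM37 assembly, the assembly of mm9, in 108 of 108 entries on chromosomes 5, 14 and X once the start was counted from 1. All mature sequences printed were matched to RefSeq by name.

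Tests were exact binomial tests between libraries and Fisher's exact tests of arm use. Simulated reads with known changes served to check the binomial test. They were drawn with counting error only, which the test assumes, so they cannot show how it performs with variation between libraries. Scaling factors came from edgeR 4.0.16 and DESeq2 1.42.0 under R 4.3.3, and other steps used Python 3.11.15 with scipy 1.17.1. Members were named by the coordinate rule, with miR-17-92 and entries sharing a seed for comparison. Likeness of expression patterns was not computed for 2 samples of 1 group. The members, lists and markers were chosen with earlier results of these data known. The marker lists of endothelium, smooth muscle, pluripotent, erythroid and liver cells made up 2.87% to 2.90%, 6.82% to 7.94%, 0.543% to 0.551%, 0.220% to 0.273% and 0.0422% to 0.0554% of mature reads. These sums too count a marker at each of its entries. MiR-302a was the only marker not listed. Alternatives changed the reads counted, the entries kept, shared sequences, scaling and replicates. Counting the star reads of miR-106b by their seed, leaving out miR-92a-2 and counting miR-92a once in its seed family were added after the data had been seen.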

Additional observations from a re-analysis of the deposited data

How the results depend on the processing

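Counting each mature sequence once gave 0.0950% for miR-106a-363, 2.40% for miR-106b-25, 0.435% for the miR-17 seed reads of both clusters (0.318% as listed) and 1.496% for their miR-25 seed reads (2.84% as listed), since miR-92a-2 and miR-19b-2 then count at chromosome 14 and the total is smaller. Only 2 of 6 members then differed between the replicates, with miR-92a-2 and miR-19b-2 not tested. Without miR-92a-2 and miR-19b-2, miR-106a-363 fell to 0.0694% of mature reads, the ratio of the clusters became 25.3 and the star share of miR-106a-363 rose from 0.143% to 3.61%. With all entries kept, that ratio was 12.1 in star reads and 0.965 in all reads. Without miR-92a-2 alone, the miR-25 seed share was 1.09%, and with miR-92a counted once miR-25 gave 31.8% of its seed family in place of 20.9%. The miR-17 seed share was 0.313% in all reads, 0.319% with at least 10 reads and 0.340% with the star reads of miR-106b. Medians over the entries put the star share at 1.11% for miR-106b-25 (1.80% summed) and 0.173% for miR-106a-363.

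With TMM 5 members differed between the replicates and with DESeq2 size factors 6, against 4. The split of all calls went from 119 higher and 58 lower in replicate 2 to 86 and 92 (TMM) and 78 and 98 (DESeq2), and the median log2 ratio of all entries from 0.07 to 0.01 and 0.00. Leaving out either replicate gave 1.71% to 1.97% for miR-106a-363, 1.62% to 1.89% for miR-106b-25 and 0.943 to 0.956 for their ratio. No paired analysis was possible because there is 1 group of samples. Star arms with 0 to 4 reads limit any statement on arm use of miR-106a, miR-20b, miR-19b-2 and miR-92a-2.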

Other observations

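The miRDeep2 scores of miR-106a and miR-19b-2 differed between the replicates, as did their few star reads. MiR-106a scored 250 in replicate 1, with 1 star read, and 1.7 in replicate 2, with 0, although its mature reads were 506 and 491. MiR-19b-2 scored 2.4 in replicate 1, with 0 star reads, and 680 in replicate 2, with 2. Among entries with at least 100 mature reads, no entry without a star read scored above 2.8 in either replicate (80 and 84 entries), and those with at least 1 star read had median scores of 910 (241 entries) and 930 (233 entries). Star reads did not always go with a high score. The lowest scores of entries with star reads were -10 and -23, and miR-17 scored 2.3 in both replicates with 1147 and 1191 star reads.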
